A study of Mus musculus with 4 samples.

Results

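The transcripts of 263 zinc finger genes named Zfp were followed in C3H10T1/2, a mesenchymal stem cell line from mouse embryos, after depletion of the DNA methyltransferase Dnmt1 and after the start of osteoblast (OB) induction. Members were chosen by name and level: they were the genes whose symbol is Zfp followed by digits only, whose biotype in the deposited table is protein_coding, and whose mean scaled count (CPM, counts scaled to a library total of 1000000) over the 4 libraries was at least 2. Of 374 rows with such a name, 319 were protein_coding, and 56 of these lay under the CPM minimum, 15 with no count in any library. The 263 members made up 2.73% of the 9649 protein-coding genes that reached the same minimum, in a table of 54532 genes. The mean over all libraries chose the members, and 14 of them were under 2 CPM in at least 1 library. Just outside the limit lay Zfp941 with a mean CPM of 1.86 and Zfp3 with 1.94, and just inside it Zfp791 with 2.05 and Zfp963 with 2.17. A further 55 rows with a Zfp name carried another biotype in the table and were left out by the rule, although 40 of the 42 that reached the minimum are protein-coding genes in GENCODE M21.

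All cells belonged to this 1 line and had been transfected for 48 h, either with a control siRNA (control, OB) or with an siRNA against DNMT1 (siDNMT1, siDNMT1_OB). The OB and siDNMT1_OB cells were then induced for 3 days with 50 µM ascorbic acid, 10 mM glycerophosphate and 0.001 µM dexamethasone. No such 3 days are recorded for control and siDNMT1. Induction and longer time in culture after transfection therefore cannot be told apart in any comparison below. Poly(A) RNA was sequenced in 1 library per group, so that differences between groups are given without a test, except from an additive model named as such, and labels name no separate cultures. Values are counts, and every list of 4 counts below follows the order control, siDNMT1, OB, siDNMT1_OB. Fold changes are log2 differences of CPM scaled by TMM factors (a correction for library composition) with a prior count of 2, and their intervals are exact 95% binomial intervals of the counts, which cover counting error only.

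The C2H2 zinc finger is a small fold in which a pair of cysteines and a pair of histidines hold a zinc ion, and an array of such fingers reads a DNA sequence. Many Zfp proteins begin with a KRAB domain, which recruits Trim28 and through it the histone methyltransferase Setdb1 and DNA methylation. KRAB zinc finger genes are known to arise by tandem duplication, to lie in clusters and to silence retroelements, while members without KRAB act as transcription factors, RNA-binding proteins or cofactors. Some of them, among them Zfp423, Zfp521 and Zfp467, are known regulators of the choice between bone and fat cells.

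Total counts were between 22296046 and 27367792 per library, and TMM factors between 0.991 and 1.01. Dnmt1 had 7195 counts in control and 3375 in siDNMT1, a log2 fold change of -1.01 (-1.07 to -0.95), but 1931 in OB and 2492 in the library labelled siDNMT1_OB, a log2 fold change of 0.13 (0.04 to 0.21). The induced pair thus shows no lower level of the targeted transcript, and every siRNA direction drawn from the library labelled siDNMT1_OB rests on its label. Col1a1, Col1a2 and Vim, the most abundant of 10 markers of fibroblastic cells, had between 137594 and 297331 counts in each library. Of the others, Thy1 and Eng had mean levels of 33.8 and 38.4 CPM. Nt5e had 8, 13, 20 and 50 counts, under the CPM minimum. Ly6a had a log2 fold change of -1.03 for siDNMT1 against control. Pdgfra was at 2.47 for OB against control and at -0.77 for the library labelled siDNMT1_OB against OB. The endothelial and epithelial marker lists summed to at most 0.959 CPM in any library, with Epcam at 0. Among the 6 osteoblast markers, Sp7, Alpl and Bglap had between 0 and 8 counts in each library, Ibsp between 1 and 17 and Runx2 between 1644 and 2459, while Spp1, the most abundant, had 14862, 5270, 4226 and 7261. The 21 proliferation genes had summed levels of 3675, 3080, 834 and 1520 CPM in the 4 libraries. Their median log2 fold change was -0.29 for siDNMT1 against control, 0.99 for the library labelled siDNMT1_OB against OB, and -2.08 for OB against control. In these bulk samples, fewer cells of a type and less RNA per cell cannot be told apart.

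Zfp transcripts were low in all libraries. Together the members held 0.514% (0.512 to 0.517) of control counts, 0.569% (0.566 to 0.572) of siDNMT1 counts, 0.562% (0.559 to 0.565) of OB counts and 0.547% (0.544 to 0.549) of those labelled siDNMT1_OB. Control held the smallest share. No 2 of the 4 intervals overlapped, but they are narrow at this depth and leave out the spread between dishes, so this shows no difference between groups. The median member had 358, 353, 313 and 381 counts. Per length, in TPM (reads per length, scaled to the same total in each library), the median member stood at 8.17, 9.56, 9.46 and 9.27, against 22.9, 23.9, 24.2 and 24.4 for all protein-coding genes kept. Zfp503, a transcriptional repressor, had 5176, 4647, 3761 and 3275 counts, the most of any member in each library except that labelled siDNMT1_OB, where Zfp106 had 4054. Control gave the lowest scaled CPM of the 4 libraries for 124 members (47.1%), against 28.7% of the other protein-coding genes, and the highest for 34 (12.9%), against 32.1%. Counts of 70 members are uncertain. Of these, 53 overlap an exon of a gene on the opposite strand, and the use of strand in counting was not stated. In 18, at least 50% of the 50-base words also occur in other genes, counted over all other genes. Levels moved little: the ratio of the highest to the lowest library had a median of 1.31, against 1.43 for other genes, and reached 2 for 19 members (7.22%), against 20.7%.

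By their coding sequences the members were mostly long finger arrays. A KRAB pattern was found in 158 members and not in 105, in the longest coding sequence of each gene in GENCODE M21, translated. The number of C2H2 finger patterns had a median of 11, with 12 in members with the KRAB pattern and 7 in those without it. Zfp142 had the most, at 36. In 7 members no such pattern was found: Zfp36, Zfp365, Zfp503, Zfp781, Zfp839, Zfp968 and Zfp972. Zfp36, or tristetraprolin, is a CCCH finger protein that promotes mRNA decay. Members with the KRAB pattern were the lower group, with a median of 10.1 CPM over the libraries against 23.9 without it.

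**Figure D1:**
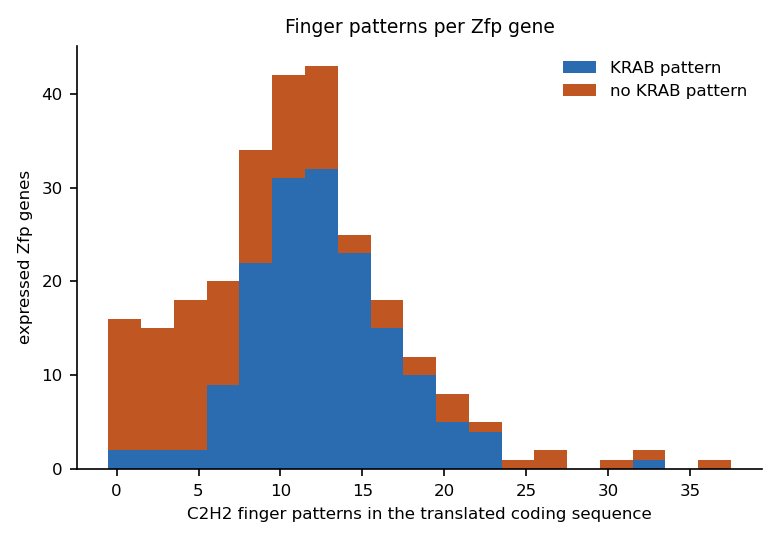
Number of expressed Zfp genes (y axis) by the number of C2H2 finger patterns in the translated coding sequence (x axis, bins of 2), stacked by presence of the KRAB pattern. Members with the KRAB pattern, in blue, lie around their median of 12 patterns, and most members with few patterns lack it.

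Depletion of Dnmt1 in uninduced cells went with a small shift of the Zfp genes towards higher levels. The median log2 fold change of siDNMT1 against control was 0.14 over the 263 members, 186 of which (70.7%) were above 0. For the other 9386 protein-coding genes the median was -0.01, with 48.1% above 0. Large differences were few, since 2 members were higher by at least 1 (background 1.62% of all protein-coding genes kept) and 0 were lower by at least 1 (1.21%). At the smaller limit of 0.5, 20 members (7.60%) were higher and 1 (0.380%) was lower, against backgrounds of 6.77% and 4.85%. The median of the members was above 0 at each level of expression, but its contrast with other genes was smaller under 15 CPM. It was 0.12 for members with a mean CPM of 2 to 5 (other genes 0.08), 0.10 from 5 to 15 (0.03) and 0.15 from 15 upwards (-0.02). The proliferation genes moved in the same pair, with a median of -0.29 and 20 of 21 below 0. Control, used in this pair, also held the smallest share of member counts of all libraries. The part of either in these values was not tested. No test was made of these medians, because genes of a pair of libraries are not replicates.

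Both members past the limit of 1 are KRAB genes with near copies. With a mean CPM of at least 5, or without members of uncertain counts, 0 were higher by at least 1. Zfp58 had 50, 100, 81 and 90 counts, a log2 fold change of 1.05 (0.58 to 1.60). It shares 50.2% of its 50-base words with other genes, so its counts are uncertain. Zfp991 had 53, 103, 50 and 83 counts, a log2 fold change of 1.01 (0.55 to 1.55), and shares 86.7% of these words. In each of them siDNMT1 was the highest library, and control lay under 2 CPM.

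The next members share little or no sequence with other genes. Zfp618, a partner of the methyl-DNA binding protein Uhrf2, had 252, 473, 570 and 673 counts, a log2 fold change of 0.98 (0.77 to 1.22). Control was the lowest library for Zfp618. Zfp423, which marks and promotes preadipocytes, had 63, 114, 171 and 170 counts, a log2 fold change of 0.92 (0.48 to 1.41). Zfp882 had 86, 150, 88 and 119 counts and was 0.87 higher (0.49 to 1.28). Zfp46 had 428, 666, 575 and 683 counts and was 0.72 higher (0.54 to 0.90). At the low end Zfp619, with 33 finger patterns, had 140, 87, 53 and 74 counts, a log2 fold change of -0.59 (-1.01 to -0.21). Zfp2 followed at -0.50, Zfp963 at -0.43, Zfp458 at -0.40, and Zfp52 and Zfp54 at -0.35 each. The intervals of Zfp963 and Zfp54 included 0, and Zfp52 and Zfp54 overlap a gene on the opposite strand. Zfp963 was under 2 CPM in siDNMT1.

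In induced cells the shift was not seen. For the library labelled siDNMT1_OB against OB the median over members was 0.01, with 136 (51.7%) above 0, against 0.02 and 54.1% for other genes. Neither limit of 1 was passed by any member: 0 were higher (background 2.11%) and 0 were lower (0.943%), while at 0.5 there were 7 higher and 8 lower (7.61% and 4.6%). Dnmt1 itself was not lower in this pair, and the proliferation genes moved with it by a median of 0.99; their part in these values was not tested. The highest member was Zfp689 with 115, 142, 54 and 119 counts, a log2 fold change of 0.88 (0.42 to 1.39), followed by Zfp367 at 0.70, Zfp850 at 0.67 and Zfp961 at 0.63. Each of these had its lowest count in OB, where Zfp850 was under 2 CPM, and Zfp689, Zfp367 and Zfp961 overlap a gene on the opposite strand. Zfp759 was the lowest, with 119, 158, 171 and 118 counts and a log2 fold change of -0.77 (-1.13 to -0.43). Zfp395, with 1503, 1453, 1773 and 1443 counts, was the best counted of the 6 lowest members, at -0.54 (-0.64 to -0.44). The other 4 of these were Zfp963 at -0.71, Zfp524 (uncertain counts) at -0.61, Zfp551 at -0.59 and Zfp661 at -0.54. Zfp566 and Zfp184, each at 0.56, complete the 6 highest. Both were under 2 CPM in OB, and Zfp963 was under 2 CPM in the library labelled siDNMT1_OB.

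Only Zfp184 passed 0.5 in the same direction in both pairs, at 0.65 and 0.56, which is 0.380% of members against 3.55% of the other protein-coding genes. It had 50, 75, 42 and 74 counts, under 2 CPM in control and OB, and its counts are uncertain because another gene lies on the opposite strand. Across the 263 members the siDNMT1 log2 fold changes of the uninduced and the induced pair, which share no library, had a Pearson r of 0.17 and a Spearman rho of 0.16. This is a description across genes, which are not independent replicates. For the other protein-coding genes r was 0.29 and rho was 0.15.

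The difference of the siDNMT1 log2 fold changes, induced minus uninduced, had a median of -0.14 over members and 0.02 over other genes, and was negative for 188 members. No member had a difference of 1 or more (background 2.97%) and 3 had -1 or less (1.89%), while at 0.5 there were 7 higher and 30 lower (10.5% and 8.46%). These were Zfp759 at -1.25, Zfp423 at -1.16 and Zfp58 at -1.14, with Zfp618 next at -0.99. The highest were Zfp961 at 0.90, Zfp367 at 0.85, Zfp619 at 0.82 and Zfp654 at 0.60. The proliferation genes had a median difference of 1.17.

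**Figure D2:**
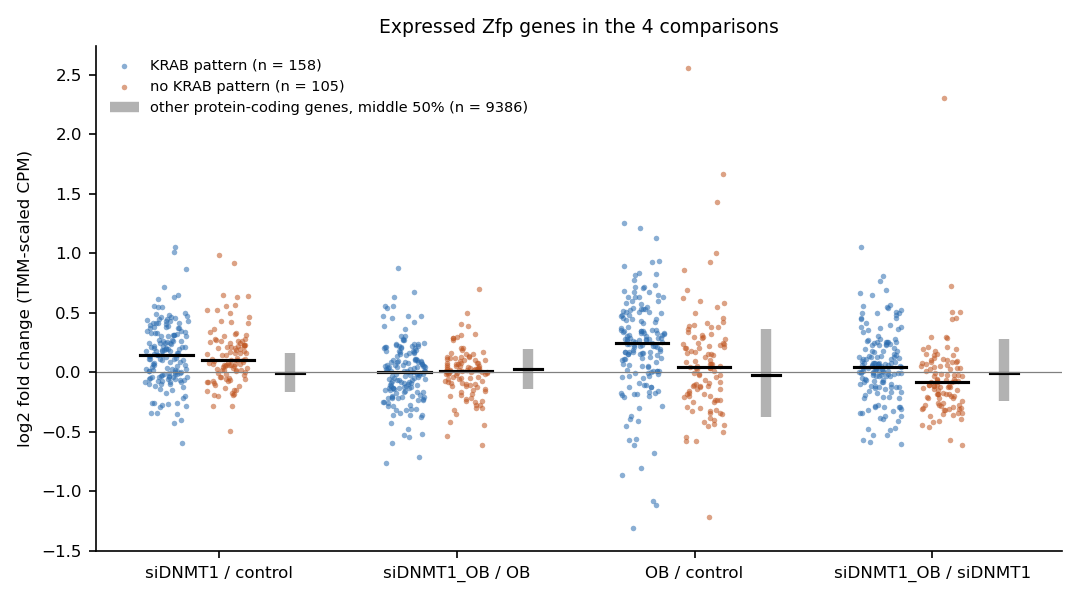
Log2 fold change of TMM-scaled CPM (y axis) of every member in the 4 comparisons (x axis), split by the KRAB pattern, with black bars at the medians and a grey bar for the middle 50% of other protein-coding genes. The medians of both Zfp groups lie above 0 for siDNMT1 against control, and the median with the KRAB pattern, 0.25, lies highest for OB against control.

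OB induction with control siRNA also went with a higher median Zfp level. The median of OB against control was 0.17 over members, 178 of which (67.7%) were above 0, against -0.02 and 48.3% for other genes. At matched levels the contrast was smaller or turned, since members with a mean CPM of 2 to 5 had a median of 0.26 and other genes 0.33. From 5 to 15 CPM the medians were 0.23 and 0.09, and from 15 upwards 0.07 and -0.06. At the limit of 1, 7 members were higher (background 8.98%) and 4 were lower (6.82%), a smaller share than in the table at large. These counts depended on the choice of members. They were 3 and 2 with a mean CPM of at least 5, and 12 and 5 with at least 0.5. Without members of uncertain counts they were 5 and 2. At 0.5, 49 members were higher and 14 lower (19.7% and 18.2%). This comparison uses the same control library as siDNMT1 against control. With DNMT1 siRNA, the library labelled siDNMT1_OB against siDNMT1 gave a median of 0.00 with 131 members above 0. In that pair 2 members were higher by 1 (background 6.01%) and 0 lower (2.51%), and at 0.5 there were 17 higher and 7 lower (15.1% and 10.2%). With a mean CPM of at least 5, 1 member was higher by 1 in that pair. The upward shift of the members was thus seen in the 2 comparisons that use the control library and in neither of the others. The summed proliferation genes were highest in control, and their part in these values was not tested.

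The median at induction was larger in the KRAB group. With the KRAB pattern the median of OB against control was 0.25, with 120 of 158 above 0, and without it 0.04, with 58 of 105 above 0. Among members with a mean CPM of 15 or more these medians were 0.25 (43 members) and 0.01 (76 members), whereas from 2 to 5 CPM they were 0.29 and 0.24, both under the 0.33 of other genes, and from 5 to 15 CPM 0.23 and 0.21. For siDNMT1 against control the medians were 0.15 with the pattern and 0.10 without it, an order that did not hold at each level. They were 0.20 and 0.09 from 15 CPM upwards, 0.09 and 0.18 from 5 to 15 CPM, and 0.12 in each group from 2 to 5 CPM. For the library labelled siDNMT1_OB against siDNMT1 the medians over all levels were 0.04 and -0.08.

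Genes for mesenchymal fate held the 2 highest values of the induction comparison. Zfp467, known to act on the balance of fat and bone cells (chromosome 6, 48427697 to 48445825 on GRCm38), had 25, 38, 131 and 204 counts. Both induced libraries lay above both uninduced ones. Its log2 fold change was 2.55 (2.03 to 3.33) with control siRNA and 2.30 (1.86 to 2.90) for the library labelled siDNMT1_OB against siDNMT1, the highest of all members in each. Zfp467 lay under the CPM minimum in control (0.92 CPM) and in siDNMT1 (1.48 CPM). It thus entered the members through its induced libraries, and both fold changes rest on a low uninduced level. Zfp423 (chromosome 8, 87661810 to 87959595) was 1.67 higher (1.28 to 2.14) in OB than in control and at 0.51 for the library labelled siDNMT1_OB against siDNMT1. Zfp521, a nuclear factor known to act on the bone and fat fates (chromosome 18, 13687013 to 13972733), had 948, 1407, 1586 and 2088 counts, at 1.00 and 0.51. All 3 genes had their lowest count in control. Of the other members of the list, Zfp516 had 2070, 2245, 2047 and 2112 counts, Zfp217 had 744, 740, 643 and 714, and Zfp503 reached -0.57 (-0.63 to -0.50) for the library labelled siDNMT1_OB against siDNMT1. The list was chosen with results of these data known and is not independent evidence of its direction.

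**Figure D3:**
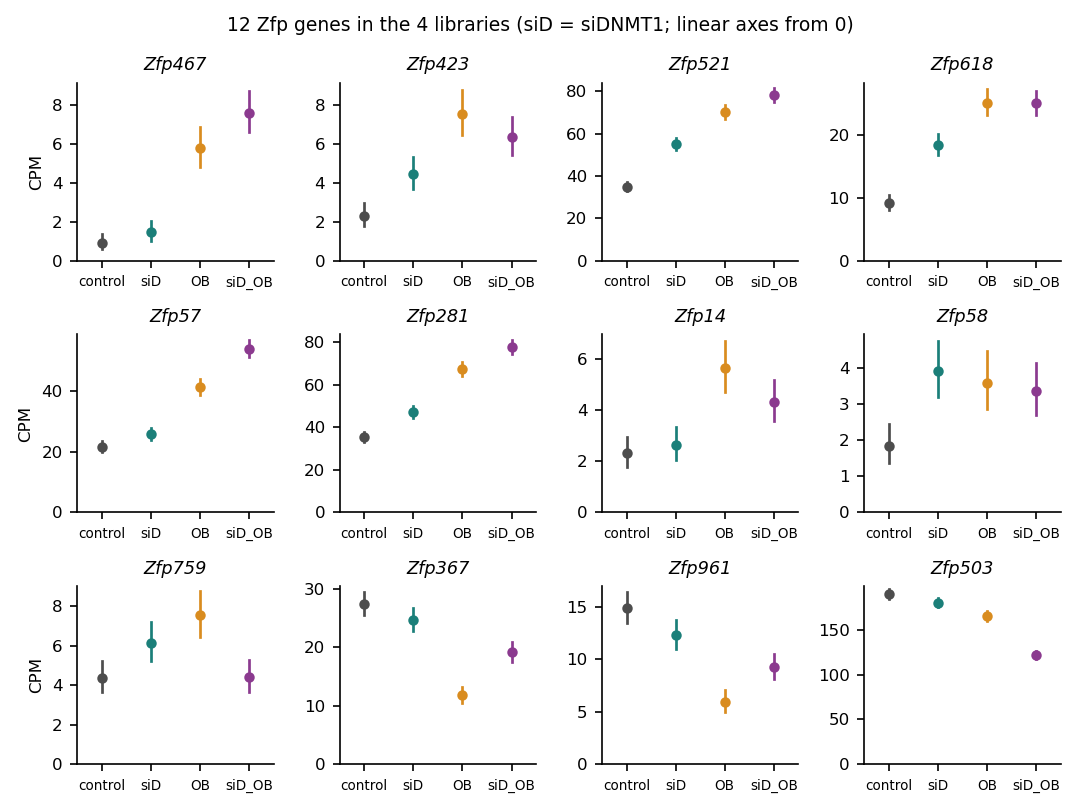
CPM (TMM-scaled, y axes from 0) of 12 Zfp genes in the 4 libraries, 1 point per library, with exact 95% Poisson intervals of the counts as vertical lines. Zfp467 lies higher in both induced libraries, Zfp618 is lowest in control, and Zfp367 and Zfp961 are lowest in OB.

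Of the genes for imprint maintenance and retroelement silencing, 5 of 7 were members. Zfp57, a KRAB protein that keeps DNA methylation at imprinted regions, had 584, 661, 931 and 1438 counts. Its levels were higher in both induced libraries, at 0.93 in OB against control and 1.06 (0.92 to 1.19) in the library labelled siDNMT1_OB against siDNMT1. Zfp445, its partner in that role, had 2855, 3119, 3092 and 3345 counts and did not pass 0.5 in any comparison. Zfp809, which silences murine retroviruses, had 376, 402, 454 and 504 counts and was 0.53 higher in OB than in control. Zfp568, a repressor of a placental Igf2 transcript, had 836, 1021, 509 and 709 counts. It was lower in both induced libraries, at -0.45 and -0.59 (-0.73 to -0.45). Zfp932 had 360, 338, 364 and 429 counts and shares most of its 50-base words with other genes. Zfp708 and Zfp819 lay under the minimum with at most 7 counts in any library.

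Of 16 promoter and chromatin factors, 13 were members, and their median was 0.08 for siDNMT1 against control and 0.04 for OB against control. Zfp281, a factor linked to pluripotency, had 961, 1207, 1524 and 2080 counts and was 0.93 and 0.72 (0.62 to 0.83) higher in the induced libraries. Zfp532 had 892, 1245, 1200 and 1447 counts, at 0.56 for siDNMT1 and 0.69 for OB against control. Zfp131 was lower in OB, at -0.55, with 1224, 1226, 697 and 1004 counts. Zfp143, an activator that binds many promoters, had 586, 556, 383 and 458 counts, with a gene on its opposite strand. The pluripotency gene Zfp42 had no count in any library, which allows at most 3 counts each, and Zfp296 had 1, 1, 2 and 1.

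Of 16 genes for RNA, ribosome, ubiquitin and spindle functions, 9 were members. Their medians, 0.07 for siDNMT1 against control and -0.06 for OB against control, were near 0. Zfp598, a ubiquitin ligase of stalled ribosomes, had 1920, 1741, 1070 and 1333 counts, at -0.58 and -0.45 in the induced libraries. Zfp106, an RNA-binding protein, had 4286, 4197, 3421 and 4054 counts, with log2 fold changes between -0.11 and 0.05, and overlaps a gene on the opposite strand. Zfp36 had 509, 617, 536 and 690 counts, and its own counts are uncertain because another gene lies on the opposite strand.

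Among the remaining members, Zfp618, which lacks the KRAB pattern, was 1.43 higher (1.22 to 1.66) in OB than in control, and 3 KRAB genes followed it. Zfp14 had 63, 68, 128 and 116 counts, at 1.26 (0.84 to 1.74) in OB and 0.69 (0.26 to 1.16) in the library labelled siDNMT1_OB. Zfp112 had 76, 78, 149 and 144 counts, at 1.21 (0.83 to 1.65) and 0.81 (0.41 to 1.24), and Zfp605 had 41, 39, 77 and 65, at 1.13 (0.61 to 1.76) and 0.65. For these 3 genes both induced libraries lay above both uninduced ones. Zfp605 was under 2 CPM in both uninduced libraries and entered the members through the induced ones. Zfp112 and Zfp605 overlap a gene on the opposite strand, so their counts are uncertain. At the low end Zfp961 had 405, 316, 135 and 248 counts, a log2 fold change of -1.31 (-1.61 to -1.04), and overlaps Cyp4f18 on the opposite strand. Zfp367, with 747, 635, 266 and 513 counts, reached -1.22 (-1.43 to -1.02), Zfp619 reached -1.11 and Zfp850, with 94, 96, 36 and 69 counts, -1.09. Zfp850 was under 2 CPM in OB and entered the members through the other libraries. Zfp472 followed at -0.86 and Zfp689 at -0.81. Control was the highest library for Zfp961, Zfp367 and Zfp619 and OB the lowest for each of these 3 genes and for Zfp850. For the library labelled siDNMT1_OB against siDNMT1, Zfp78 (0.77) was also among the 6 highest, and Zfp341 (-0.61), Zfp81 (-0.61), Zfp763 (-0.57) and Zfp97 (-0.53) among the 6 lowest, of which Zfp341 and Zfp97 have uncertain counts. The summed level of the proliferation genes took the same order of libraries as Zfp961 and Zfp367, though not each gene of that list did (Mcm7 was lowest in the library labelled siDNMT1_OB), and their part in these values was not tested. In both induction pairs 15 members (5.70%) were at least 0.5 higher and 2 (0.760%), Zfp81 and Zfp850, were at least 0.5 lower, against 12.7% and 8.69% of the other protein-coding genes. The 2 pairs share no library, and over the members their log2 fold changes had a Pearson r of 0.69 and a Spearman rho of 0.59, against 0.88 and 0.81 for other genes.

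An additive edgeR quasi-likelihood model over 13233 genes, with siRNA and induction as terms and their interaction counted as noise, was fitted as the only test. With Benjamini-Hochberg adjustment, edgeR called 0 members for the siRNA term, with the smallest adjusted p at 0.372, and 4 members (1.52%) had an unadjusted p under 0.05. It called 0 of all genes for that term, where 1148 (8.68%) had an unadjusted p under 0.05. For induction edgeR called 5 members higher (Zfp57, Zfp112, Zfp281, Zfp467 and Zfp521) and 2 lower (Zfp81 and Zfp598), which is 2.66% of members and 21.1% of all genes. The model has 1 residual degree of freedom and treats the difference between the siDNMT1 effects, whose median was not 0 for the members, as error.

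The KRAB silencing machinery was set beside the members. Over 25 corepressor and heterochromatin genes the median was 0.04 for siDNMT1 against control and -0.16 for OB against control. Trim28, the partner that KRAB domains bind, had 9063, 8606, 3938 and 5168 counts. It was at 0.01 for siDNMT1 and -0.94 for OB against control, and at -0.80 for the library labelled siDNMT1_OB against siDNMT1. Trim28 had its lower counts in both induced libraries. Setdb1, with 1611, 1377, 1227 and 1253 counts, was at -0.13 for OB against control. Ehmt1, a histone methyltransferase, and Atf7ip, a partner of Setdb1, went the other way in that pair, at 0.51 and 0.45. In all, 7 of the 25 genes were above 0 there. Lower by at least 1 were 4 genes (16%, background 6.82%): Uhrf1 (-2.29), Dnmt1 (-1.63), Suv39h2 (-1.53) and Suv39h1 (-1.49). The proliferation genes had a median of -2.08 in the same pair, and their part in these values was not tested.

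Other zinc finger families were set beside the members. Zscan and Zkscan genes (15), which share the finger arrays, had medians of 0.16 for siDNMT1 and 0.23 for OB against control, with 13 of 15 above 0 in each. Klf and Sp genes (18) had 0.15 and 0.20, and Zbtb genes (31) had 0.08 and 0.00. The 40 Zfp genes left out by biotype had 0.14 and 0.08. A median above 0 for siDNMT1 against control was therefore common to all 5 sets and not particular to the members.

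The promoters of the members differed from those of other genes in sequence. A RefSeq promoter (GRCm38.p6, 250 bases before to 50 after the start) was matched for 219 members, 204 of them within 1000 bases of the start in the deposited table. These windows held a median of 13 CpG, against 22 for other protein-coding genes, with 10 for members with the KRAB pattern and 20 for those without it. Members with fewer CpG than the median (104) had a median of 0.16 for siDNMT1 and 0.28 for OB against control, with 85 above 0 in the latter. Those at or over it (115) had 0.11 and 0.09, with 65 above 0. CpG number and the KRAB pattern go together, and their separate parts were not tested. No methylation was measured in the files used here.

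The contrast is shown by the 250 bases before the start of a CpG-rich and a CpG-poor member, with each CG in capitals. Zfp618 lies at chr4:62965317-62965566, plus strand, with 48 CpG, and Zfp57 at chr17:37000913-37001162, plus strand, with 6 CpG.
Zfp618: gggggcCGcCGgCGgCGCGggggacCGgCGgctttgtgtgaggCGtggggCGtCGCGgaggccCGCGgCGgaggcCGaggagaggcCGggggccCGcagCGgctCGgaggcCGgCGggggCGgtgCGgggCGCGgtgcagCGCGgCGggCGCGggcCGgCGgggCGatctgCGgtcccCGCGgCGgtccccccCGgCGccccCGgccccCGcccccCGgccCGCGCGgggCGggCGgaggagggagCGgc
Zfp57: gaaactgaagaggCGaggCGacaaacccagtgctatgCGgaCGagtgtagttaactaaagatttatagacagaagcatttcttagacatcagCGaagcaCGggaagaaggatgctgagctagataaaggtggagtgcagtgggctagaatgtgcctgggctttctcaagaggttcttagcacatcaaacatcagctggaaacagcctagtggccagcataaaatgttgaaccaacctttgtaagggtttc
Zfp618 was higher in siDNMT1 and in OB than in control, and Zfp57 mainly in the induced libraries.

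A shared run of letters was seen in KRAB promoters and then counted, so it was chosen after the sequences were read. The motif, ACTACA followed after any 2 bases by TCCC (both strands, no other motif searched), letters of the element that Zfp143 is known to bind, was in 42 of 219 member windows of 300 bases (19.2%). It was in 33 of 138 with the KRAB pattern (23.9%), 9 of 81 without it (11.1%), 348 of 7389 other protein-coding genes kept (4.71%) and 506 of all 20480 promoters (2.47%). Tandem copies can share sequence, so these windows were not treated as independent. Members with the motif had medians of 0.12 for siDNMT1 and 0.28 for OB against control, and those without it 0.14 and 0.17. For the library labelled siDNMT1_OB against siDNMT1 they had 0.13 and -0.02. Among KRAB members alone, those with the motif (33) had the lower median for siDNMT1 against control, 0.09 against 0.15 without it (105), and 0.31 against 0.25 for OB against control.

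Promoters with the motif in capitals are shown for 3 named KRAB members, Zfp58 (chr13:67500523-67500772, minus strand), Zfp14 (chr7:30051397-30051646, minus strand) and Zfp112 (chr7:24112070-24112319, plus strand). In Zfp58 it begins 31 bases before the start and in Zfp14 14 bases before it.
Zfp58: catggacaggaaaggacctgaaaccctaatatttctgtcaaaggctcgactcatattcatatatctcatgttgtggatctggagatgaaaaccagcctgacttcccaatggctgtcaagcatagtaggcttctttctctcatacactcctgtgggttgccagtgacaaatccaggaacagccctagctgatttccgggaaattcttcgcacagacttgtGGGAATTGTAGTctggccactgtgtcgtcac
Zfp14: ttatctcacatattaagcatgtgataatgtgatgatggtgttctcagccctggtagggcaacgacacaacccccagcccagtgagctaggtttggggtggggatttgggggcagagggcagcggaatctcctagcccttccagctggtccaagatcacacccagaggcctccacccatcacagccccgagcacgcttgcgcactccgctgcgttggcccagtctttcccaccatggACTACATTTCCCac
Zfp112: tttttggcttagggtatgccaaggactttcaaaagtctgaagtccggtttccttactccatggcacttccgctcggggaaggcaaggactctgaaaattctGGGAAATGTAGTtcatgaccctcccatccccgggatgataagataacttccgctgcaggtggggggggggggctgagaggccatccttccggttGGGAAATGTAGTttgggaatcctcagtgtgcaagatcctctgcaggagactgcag
These 3 were chosen from members already named for their high values and do not stand for the 42.

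By chromosome the members were concentrated. Chromosome 7 held 64 members, 9.43% of its protein-coding genes kept, chromosome 17 held 37 (7.79%) and chromosome 13 held 23 (6.25%). Chromosome 2 held 22 and chromosome 8 held 18, whereas chromosome 19 held none. On the 11 chromosomes with at least 8 members, the median of siDNMT1 against control was above 0 on all but chromosome 11 (9 members, -0.05). OB against control was highest on chromosome 9 (10 members, 0.35) and lowest on chromosome 6 (12 members, -0.06). On chromosome 7 it was 0.03, against -0.09 for the other protein-coding genes of that chromosome.

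**Figure D4:**
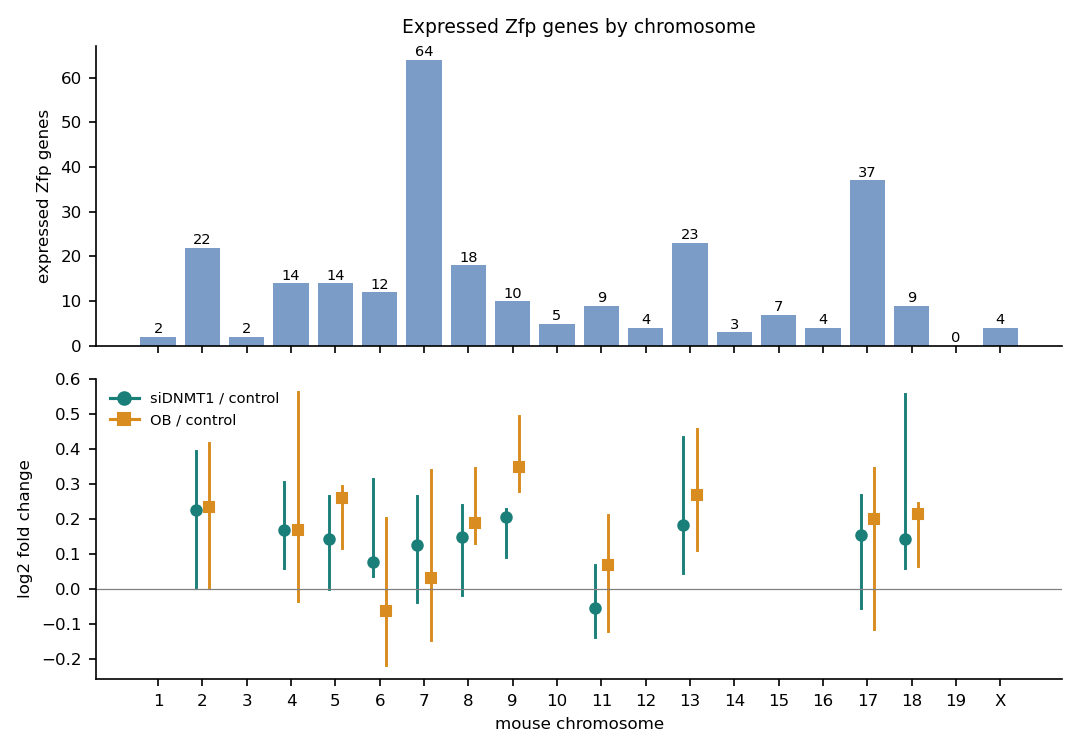
Number of members per mouse chromosome (upper axis) and, for chromosomes with at least 8 members, the median log2 fold change with the middle 50% of members as a line (lower axis). Chromosomes 7, 17 and 13 hold 64, 37 and 23 members, and only chromosome 11 has a median under 0 for siDNMT1 against control.

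Most members lay near other members, with any genes of other names between them not considered. In 24 runs, defined as at least 3 members each starting within 500 kb of the member before, lay 148 of the 263 members. The largest run, 22 genes on chromosome 17 (21008903 to 23599487, Zfp160 to Zfp13), had a median of 0.28 for OB against control with 20 of 22 above 0, and 0.04 for siDNMT1 against control. A run of 15 KRAB genes on chromosome 13 (67038596 to 67827002, Zfp712 to Zfp273) had 0.31 for siDNMT1 (11 above 0) and 0.34 for OB (14 above 0) against control. It holds Zfp58 and Zfp759. A second run on chromosome 17 (32771236 to 33631779, 8 genes, among them Zfp81) went the other way at induction, with -0.26, and -0.31 for the library labelled siDNMT1_OB against siDNMT1. On chromosome 7 the run of 12 genes at 29768552 to 30169750, with Zfp568 and Zfp14, had 0.18 for siDNMT1 with 10 above 0. The run of 8 genes at 127233061 to 127876828 had -0.13 for OB against control, and none of its genes was above 0 for the library labelled siDNMT1_OB against siDNMT1. The medians furthest above 0 came from short runs, 0.49 for siDNMT1 in 3 genes on chromosome 2 (150218073 to 150485091), 0.48 in 4 genes on chromosome 2 (175372436 to 175931100), all with uncertain counts, and 0.53 for OB in 3 genes on chromosome 9 (22225714 to 22307648). Neighbours can be tandem copies, so the genes of a run were not treated as independent.

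**Figure D5:**
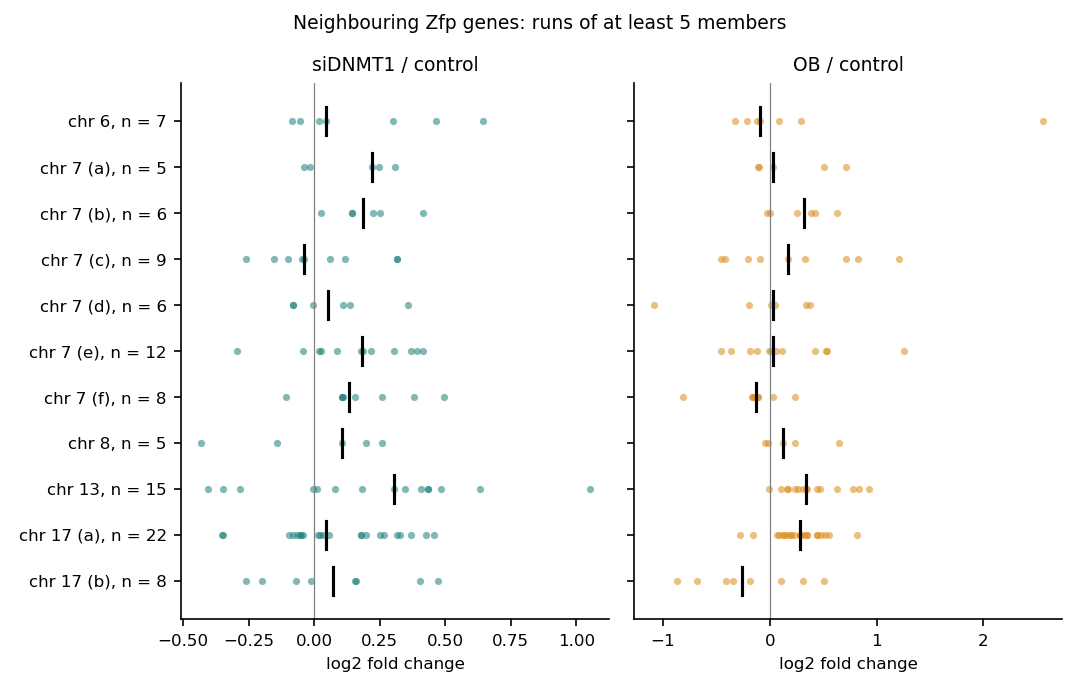
Log2 fold change of each gene (x axes) in the 11 runs of at least 5 neighbouring members (y axis, by chromosome, letters in order of position), for siDNMT1 (left) and OB (right) against control, with black bars at the medians. The first run on chromosome 17 lies mostly above 0 at induction and the second run mostly under 0.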

How the data were processed

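The authors deposited 1 table of raw read counts per gene for the 4 libraries, in whole numbers and not normalized. Per the labels and the methods, reads of paired-end poly(A) libraries passed through Trimmomatic, HISAT2 and featureCounts, and the submitters' processing notes name mm10. For these RNA reads, tool versions, strand use and the treatment of reads with several positions were not given in the sources used here. Zfp members and gene lists were chosen with earlier results of these data known.

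From these counts edgeR 4.0.16 under R 4.3.3 gave TMM factors, over the genes whose mean CPM reached 1. The prior count of log2 fold changes was 2. Members were called higher or lower at a log2 fold change of at least 1 in size, with 0.5 as a second limit. Counting intervals are exact (Clopper-Pearson) at 95%, and a count of 3 was the floor. PCR reads without molecular identifiers are not independent molecules, so intervals cover counting error only. Members named were drawn from the 6 highest and 6 lowest of each comparison, the 4 of each side for the difference, the role lists, runs with the largest medians and genes at the CPM limit. Genes with the most or no finger patterns, and genes with opposite siDNMT1 effects, were named after their values were seen. Finger (C, 2 to 4 residues, C, 12 residues, H, 3 to 5 residues, H) and KRAB A box patterns were searched in translated GENCODE M21 coding sequences, in place of a protein table. Coordinates are those of the table, on GRCm38, and 254 members lie at the same position in GENCODE M21. The fold change and additive model steps were tested on simulated data. Alternatives were other scaling factors (DESeq2 1.42.0 among them), CPM minimums, prior counts, members without uncertain counts, members of other biotypes (added after the data were seen) and the additive edgeR model.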

Additional observations from a re-analysis of the deposited data

Results flagged for a closer look

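The siDNMT1 log2 fold changes had opposite signs in uninduced and induced cells for 16 members (6.08%) in which each counting interval left out 0, against 14.2% of all protein-coding genes kept, most of which have more counts and so narrower intervals. Each state has 1 library per group, Dnmt1 was not lower in the induced pair, and the difference between the states was not tested. In 13 of them (4.94% of members, 5.06% of all protein-coding genes kept) siDNMT1 was higher than control and the library labelled siDNMT1_OB lower than OB. The differences, induced minus uninduced, were for Zfp759 (-1.25), Zfp30 (-0.92), Zfp97 (-0.81), Zfp369 (-0.67), Zfp994 (-0.66), Zfp113 (-0.65), Zfp710 (-0.63), Zfp738 (-0.60), Zfp973 (-0.53), Zfp329 (-0.50), Zfp266 (-0.43), Zfp516 (-0.40) and Zfp445 (-0.34). In the other 3 (1.14% of members, 9.12% of all) the signs were the reverse, with differences for Zfp961 (0.90), Zfp654 (0.60) and Zfp706 (0.27). These 3 had their lowest scaled level in OB, as did the summed level of the proliferation genes.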

How the results depend on the processing

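With 1 library per group no replicate could be left out, and depth limits the fold change of members with few counts. No paired analysis was possible because each group holds 1 library and the labels give no shared replicate numbers. The median of the library labelled siDNMT1_OB against OB was -0.023 with total count scaling, and the median difference of the siDNMT1 effects was -0.19 with total count scaling and -0.19 with upper quartile factors. The members' median minus that of all protein-coding genes kept was 0.14 (siDNMT1 against control) and 0.19 (OB against control) under TMM, total count, upper quartile and DESeq2 scaling. Another scaling factor shifts all genes of a pair by nearly the same amount. This difference could therefore hardly move and is no check of the shift. With a mean CPM of at least 5 (221 members), 0 members were higher by 1 for siDNMT1 against control, 3 higher and 2 lower for OB against control, and 1 higher for siDNMT1_OB against siDNMT1. With at least 0.5 (278 members), 1 was lower for siDNMT1_OB against OB, 12 were higher for OB against control, and 5 had a difference of -1 or less. Shares over all protein-coding genes are not given at these other minimums, so these counts are no result about the members. Genes with few counts often pass 1: of other genes with a mean CPM of 2 to 5, 26.5% were higher for OB against control. Without members of uncertain counts (193), 0 were higher for siDNMT1 against control and 2 lower for OB against control. With the left-out Zfp genes of other biotypes (303, added after the data were seen), 1 was lower for siDNMT1_OB against siDNMT1. The additive edgeR model called 0 higher for the siRNA, where 4 members had an unadjusted p under 0.05, and for induction 5 higher and 2 lower, beside 2 and 0 by size for siDNMT1_OB against siDNMT1 and 4 lower by size for OB against control. The cause of these changes was not tested, other than that fewer or more genes enter under another minimum. With a prior count of 0.5 all 10 counts past 1 were as given, and with DESeq2 factors 9 of them were, the exception being 6 members higher for OB against control in place of 7.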
